A study of Homo sapiens with 2 samples.

Results

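The tripartite motif (TRIM) genes encode a large family of proteins, most of which are ubiquitin ligases. Their members were taken as the probe sets whose platform annotation names exactly 1 gene with a symbol of TRIM followed by digits, which gave 46 probe sets for 45 genes, out of 14232 genes with a value of their own on the array. TRIM52 had 2 probe sets of its own, and the one with the higher mean was used. Gene expression was measured in 2 established human cell lines of diffuse large B cell lymphoma, SUDHL6 and HT, with 1 Affymetrix exon array of total RNA for each line. The medium of both lines was RPMI with fetal serum and antibiotics, and neither line was treated. The series title places these baseline profiles in work on a small-molecule inhibitor of PRC2, the complex that methylates histone H3. With 1 array per line there was no spread between cultures to set a difference against, so no test was made and every value below describes these 2 arrays.

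A TRIM protein starts with a RING finger, which recruits an E2 enzyme loaded with ubiquitin, followed by B-box zinc fingers and a coiled coil through which the proteins pair up. Domains that follow the coiled coil help to choose the substrate and divide the family into classes. Many members with a PRY-SPRY domain act in the defence against viruses, and several are switched on by interferon. Members with a PHD finger and a bromodomain act on chromatin. In lymphocytes, as in other cells, TRIM proteins are known from antibody sensing in the cytosol, interferon responses and gene silencing.

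Values are on the log2 scale after RMA, and a difference is SUDHL6 minus HT, so a positive one means a higher value in SUDHL6. A dim level for each line was set at the 95th percentile of 225 olfactory receptor genes, at 3.81 in SUDHL6 against 4.11 in HT. The count of different genes took those at least 1 apart either way, a 2-fold ratio, with the higher value at or over its own line's dim level. A dim value is no proof of a silent gene, nor is a brighter one proof of use. As a check on the cells, 5 of 5 measured B cell markers reached the dim level, among them MS4A1 at 11.33 in SUDHL6 against 8.75 in HT. The same held for 1 of 6 T cell markers (CD5) and 0 of 3 myeloid markers. As a guide to error, the central 95% of the olfactory receptor genes lay between -1.03 and 1.26. In 197 genes with several probe sets, the differences of the probe sets of 1 gene lay a median of 0.39 apart, with a 95th percentile of 1.33.

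Most TRIM genes differed by less than 1 between the lines, and 1 member, TRIM44, stood far apart. Of the 45 members, 0 were counted as higher in SUDHL6 (1, TRIM38, after quantile normalization or loess), against 3.50% of all genes, and 3 (TRIM44, TRIM8 and TRIM21; TRIM44 alone with low values raised to the dim level) as higher in HT, or 6.67% against 4.62% of all genes. Of the 30 members that reached the dim level, 0 were higher in SUDHL6 and 3 (10%) in HT, against 5.30% and 6.99% of all genes that reached it. TRIM8 and TRIM21 entered the 30 through their HT value alone. These shares are close to the background. The excess towards HT over all genes, 498 higher in SUDHL6 and 657 in HT, is not fixed. It was 576 and 568 after quantile normalization, 581 and 563 after loess, and 167 and 154 at a difference of at least 2. Of the members, 42 (93.3%) differed by less than 1, as did 91% of all genes. Over all 45 members the lines were slightly further apart than over the array as a whole. Their median absolute difference was 0.34, against 0.25 over all genes, and 68.9% of them were within 0.5, against 74.1%. Among genes at the dim level the median absolute differences were 0.43 for members and 0.30 for all genes, and 56.7% and 67.4% were within 0.5. The 30 members made up 66.7% of the 45, against 66.1% at the dim level among all genes. Both lines reached it for 23 members, SUDHL6 alone for 5, HT alone for 2 and neither line for 15.

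**Figure D1:**
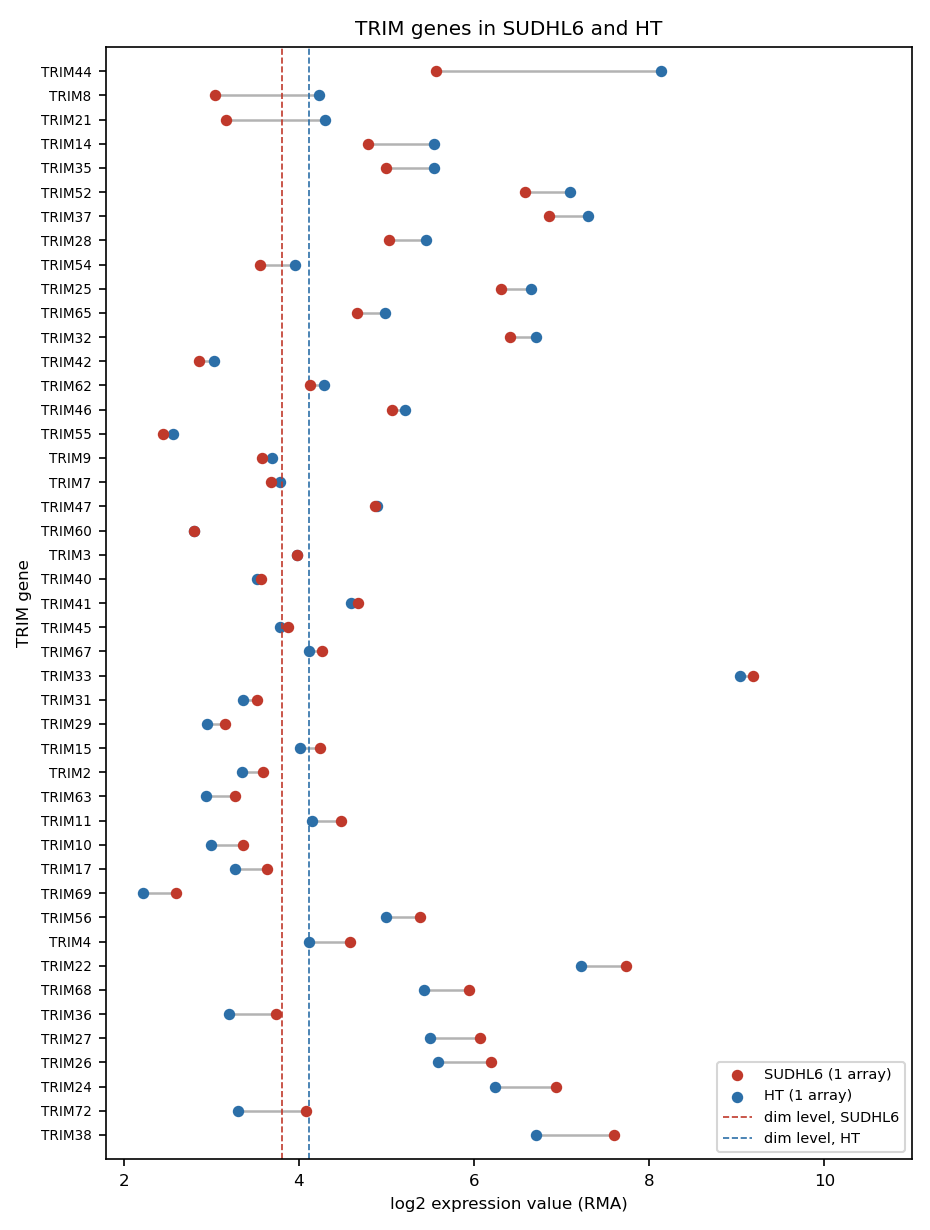
Log2 expression values of the 45 TRIM genes in SUDHL6 (red) and HT (blue), 1 array each, ordered from the lowest to the highest difference of SUDHL6 minus HT. Dashed lines mark the dim level of each line (3.81 in SUDHL6 against 4.11 in HT); TRIM44, at 5.56 in SUDHL6 against 8.13 in HT, has the widest gap.

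The differences of the members ran from -2.58 to 0.90, with a median of 0.07 against -0.04 over all genes. Their 25th and 75th percentiles were -0.30 and 0.36, against -0.31 and 0.19 over all genes. A positive difference was found for 24 members, a negative one for 19, and TRIM3 and TRIM60 held the same value on both arrays. Among the 30 members that reached the dim level, 15 were positive and 14 negative. Their median was 0.03, against -0.05 over all genes that reached it. The middle of the family thus lay near equal values in both lines. The 3 counted members lay on the HT side, a share close to the background, and of them TRIM44 alone reached the dim level in both lines. The Pearson correlation of the 2 arrays was 0.926 over the members and 0.937 over all genes, as a description of genes on shared arrays.

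**Figure D2:**
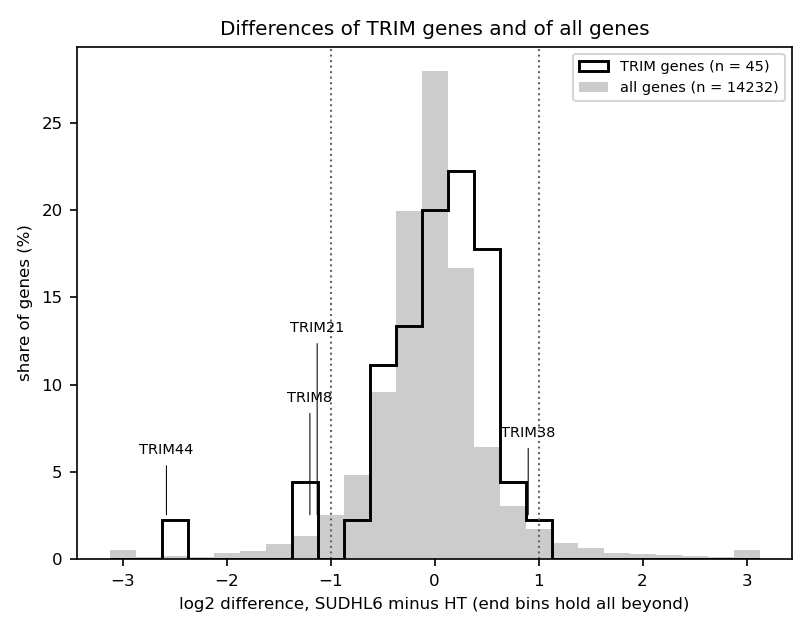
Share of genes (%) by log2 difference of SUDHL6 minus HT, for the 45 TRIM genes (black outline) and all 14232 genes (grey bars), with dotted lines at a difference of 1 either way. TRIM44 (-2.58), TRIM8 (-1.2) and TRIM21 (-1.13) lie beyond the line on the HT side, and TRIM38 (0.90) is the furthest member on the SUDHL6 side.

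TRIM44 is an unusual member, because it has no RING finger and carries in its place a zinc finger of the kind found in ubiquitin proteases. Its value was 5.56 in SUDHL6 against 8.13 in HT. Both values lay above the dim levels, so the gene read clearly in both lines, and the difference of -2.58 put SUDHL6 5.96-fold lower. The size of this difference was larger than that of 98.6% of all genes and of 97.9% of the genes that reached the dim level. Among the 657 genes counted as higher in HT it was number 94 by size, and among the 477 of them with both lines at the dim level it was number 18.

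TRIM44 lies on chromosome 11. Of its 10 nearest measured neighbours, only the 4 at the dim level could be counted as different, and 0 were. A difference of less than 1 was also found for 87.7% of all genes at the dim level. The 10 nearest genes had differences from -0.73 to 0.24, with a median of -0.25. Of the 10, 4 reached the dim level, and all 4 were lower in SUDHL6, as TRIM44 was, with a median of -0.47. LDLRAD3 stood at 4.51 in SUDHL6 against 4.64 in HT. COMMD9 stood at 5.15 in SUDHL6 against 5.88 in HT. TRAF6, a RING ligase gene of Toll-like receptor signalling, stood at 5.89 in SUDHL6 against 6.39 in HT, and PDHX, a pyruvate dehydrogenase subunit gene, at 7.08 and 7.51. With the median of all 10 neighbours subtracted, the TRIM44 difference was -2.33, and with that of the 4 it was -2.11.

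TRIM8 and TRIM21 passed the count by a small margin, in HT alone. TRIM8, a RING ligase known to promote NF-kB and STAT signalling, stood at 3.04 in SUDHL6 against 4.23 in HT. TRIM21, the cytosolic receptor that binds antibody-coated viruses and is known as the autoantigen Ro52, stood at 3.17 in SUDHL6 against 4.30 in HT. In both genes the SUDHL6 value was below the dim level and the HT value just above it. Against the dim level of SUDHL6, TRIM8 was at least 1.34-fold and TRIM21 at least 1.4-fold higher in HT. Both differences, -1.2 and -1.13, lay only just beyond the low end of the central 95% of olfactory receptor genes, -1.03. With low values raised to the dim level before subtraction they were -0.42 and -0.48, under the difference counted, and with the dim level at the 99th percentile neither gene reached it.

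Of the 10 neighbours of TRIM8 on chromosome 10, 6 had a negative difference, as TRIM8 had, and 2 were counted as higher in HT. The dim level was reached by 8 of the 10, and 6.99% of all genes at that level were higher in HT. ARL3, a small GTPase gene, stood at 4.22 in SUDHL6 against 5.65 in HT, and BORCS7, a lysosome positioning gene, at 3.60 in SUDHL6 against 5.37 in HT. The other 8 neighbours differed by less than 1 and the median of the 10 was -0.05. Around TRIM21 on chromosome 11, 0 of 10 neighbours were counted as different, with a range from -0.48 to 0.46. Only 5 of these 10 reached the dim level, and several are olfactory receptor genes, the class that set it.

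The members nearest to the threshold without passing it were TRIM38, TRIM72 and TRIM14. TRIM38, an interferon-induced ligase that restrains Toll-like receptor and TNF signalling, had the highest difference on the SUDHL6 side, at 7.60 in SUDHL6 against 6.71 in HT, a 1.86-fold ratio. Its difference of 0.90 became 1.01 after quantile normalization and 1.02 after loess, which would count it as higher in SUDHL6. TRIM72, a membrane repair gene of striated muscle, stood at 4.08 in SUDHL6 against 3.30 in HT. Its SUDHL6 value was close to the dim level and its HT value below it, so the ratio is not established. TRIM14, a RING-less adaptor of the mitochondrial antiviral pathway, stood at 4.79 in SUDHL6 against 5.54 in HT, a ratio of 1.67-fold with both lines above the dim level.

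The antiviral and innate members, as a listed group, split between the lines. Of 9 listed genes, 7 had a value of their own and all 7 reached the dim level, with 0 higher in SUDHL6, 1 higher in HT (TRIM21) and 6 under 1. Over all genes at the dim level, 5.30% were higher in SUDHL6 and 6.99% in HT, so counts this small do not set the list apart. The median of the 7 was 0.38, against 0.03 over all members that reached the dim level and -0.05 over all genes that did. TRIM22, an interferon-induced restriction factor against HIV, stood at 7.73 in SUDHL6 against 7.22 in HT. TRIM25, the ligase that activates the RNA sensor RIG-I, stood at 6.31 in SUDHL6 against 6.65 in HT. TRIM56, a ligase of the cGAS and STING pathway, stood at 5.38 in SUDHL6 against 4.99 in HT, and TRIM26 at 6.19 in SUDHL6 against 5.59 in HT. In each of these genes the lines lay within 0.60 of each other, with TRIM25 on the HT side and the rest on the SUDHL6 side.

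TRIM5, the capsid-binding restriction factor of retroviruses, had no probe set of its own and was read together with its neighbour TRIM22. That shared probe set stood at 6.05 in SUDHL6 against 6.15 in HT. It differed by -0.10, whereas the probe set of TRIM22 alone differed by 0.51. TRIM13, a ligase of the endoplasmic reticulum, shared its probe set with KCNRG, at 6.56 in SUDHL6 against 7.25 in HT. These shared probe sets are not counted among the members.

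Promoters of TRIM genes were searched for GAAANNGAAA, the core of the element through which interferon-activated factors bind DNA, because several members are known as interferon-induced. The window ran from 250 bases before to 50 bases after the outermost RefSeq start of each gene (assembly GRCh38.p14), and both strands were read. The motif was present in 6 of the 33 member promoters in the table (18.2%), namely TRIM14, TRIM2, TRIM21, TRIM26, TRIM44 and TRIM69. It was present in 3.03% of 11385 promoters of measured genes and in 3.66% of all 27305 promoters. Of the antiviral and innate list, 3 of 6 promoters held it. Of the 6 genes, 4 reached the dim level, and their differences were negative for 3 (TRIM44, TRIM21 and TRIM14) and positive for 1 (TRIM26). TRIM2 and TRIM69 were dim in both lines, and the promoter of TRIM8 was not analysed here. These are too few genes to relate the motif to a line. A match describes these letters and does not show binding.

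The 4 promoters below are shown because their genes reached the dim level and hold the motif, in capitals, and because they include TRIM44 and TRIM21. Each is read from 5′ to 3′ on the strand of its gene. In TRIM21 (chr11:4393653-4393952, minus strand) there were 2 overlapping copies, which begin 17 and 23 bases after the start. TRIM26 (chr6:30213357-30213656, minus strand) also held 2 overlapping copies, read on the other strand, that begin 194 and 188 bases before the start. TRIM14 (chr9:98119173-98119472, minus strand) held 1 copy on the other strand, 26 bases before the start, and TRIM44 (chr11:35662525-35662824, plus strand) 1 copy, 35 bases before it.
TRIM44: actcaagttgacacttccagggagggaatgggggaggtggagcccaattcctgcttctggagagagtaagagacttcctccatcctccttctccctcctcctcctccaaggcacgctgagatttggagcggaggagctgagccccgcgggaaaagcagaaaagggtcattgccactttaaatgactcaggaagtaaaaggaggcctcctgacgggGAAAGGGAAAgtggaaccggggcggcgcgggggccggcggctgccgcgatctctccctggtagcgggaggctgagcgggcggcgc
TRIM21: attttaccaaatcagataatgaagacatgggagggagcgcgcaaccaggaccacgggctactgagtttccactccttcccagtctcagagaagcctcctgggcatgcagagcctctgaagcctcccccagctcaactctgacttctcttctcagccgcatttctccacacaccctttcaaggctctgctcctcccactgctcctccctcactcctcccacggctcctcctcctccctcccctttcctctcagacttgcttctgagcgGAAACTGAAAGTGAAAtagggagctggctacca
TRIM14: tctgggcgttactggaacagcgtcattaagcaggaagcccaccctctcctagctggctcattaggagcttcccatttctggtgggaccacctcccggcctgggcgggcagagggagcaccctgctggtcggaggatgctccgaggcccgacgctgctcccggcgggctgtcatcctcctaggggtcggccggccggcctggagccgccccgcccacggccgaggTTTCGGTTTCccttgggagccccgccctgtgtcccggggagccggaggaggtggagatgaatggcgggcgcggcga
TRIM26: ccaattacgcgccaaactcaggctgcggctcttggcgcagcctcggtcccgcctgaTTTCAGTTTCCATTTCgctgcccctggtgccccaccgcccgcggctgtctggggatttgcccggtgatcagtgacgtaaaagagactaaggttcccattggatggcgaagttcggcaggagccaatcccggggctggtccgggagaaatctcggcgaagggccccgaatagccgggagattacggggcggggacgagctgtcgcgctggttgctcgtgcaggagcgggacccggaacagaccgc

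The same window also differed in CpG content between members above and below the dim level. The 21 member promoters whose gene reached the dim level held a median of 24 CpG dinucleotides, against 5 in the 12 whose gene did not. Over all measured genes the medians were 26 and 11, so the members followed the direction found for the array as a whole. TRIM33, with 44 CpG dinucleotides, and TRIM65, with 41, had the richest promoters among members that reached the dim level. TRIM36, with 40, was as rich, but its values of 3.74 in SUDHL6 against 3.2 in HT lay below the dim levels. TRIM9, with 31, and TRIM7, with 30, were also dim in both lines. TRIM38, with 7, was poor in CpG and well above the dim levels. No test was made, since these arrays define the groups.

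The chromatin members of the PHD and bromodomain class were measured for 3 genes, and 0 of them differed by 1. All 3 reached the dim level, and 87.7% of all genes at that level also differed by less than 1. TRIM28, also called KAP1, is the corepressor that zinc finger proteins recruit to silence transposable elements, and stood at 5.03 in SUDHL6 against 5.45 in HT. TRIM24, a cofactor of nuclear receptors that also targets p53, stood at 6.93 in SUDHL6 against 6.24 in HT, a difference of 0.69 and a ratio of 1.61-fold. TRIM33, a ligase and cofactor of the SMAD pathway, stood at 9.19 in SUDHL6 against 9.04 in HT. TRIM24 was thus the higher in SUDHL6 and TRIM28 the lower, while TRIM33 was within 0.15.

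Most genes that work with TRIM28 also differed by less than 1. Of 12 measured partners, 11 reached the dim level, and the median of the 12 was -0.02. Among all genes at the dim level, 5.30% were higher in SUDHL6 and 6.99% in HT. Of the partners, 0 were higher in SUDHL6 and 1 was higher in HT. That gene was MORC2, an ATPase of the HUSH silencing pathway, at 5.4 in SUDHL6 against 6.61 in HT, a 2.31-fold ratio. SETDB1, the methyltransferase that TRIM28 recruits, stood at 6.45 in SUDHL6 against 6.01 in HT. CBX5, which encodes the heterochromatin protein HP1 alpha, stood at 10.41 in SUDHL6 against 11.12 in HT.

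**Figure D3:**
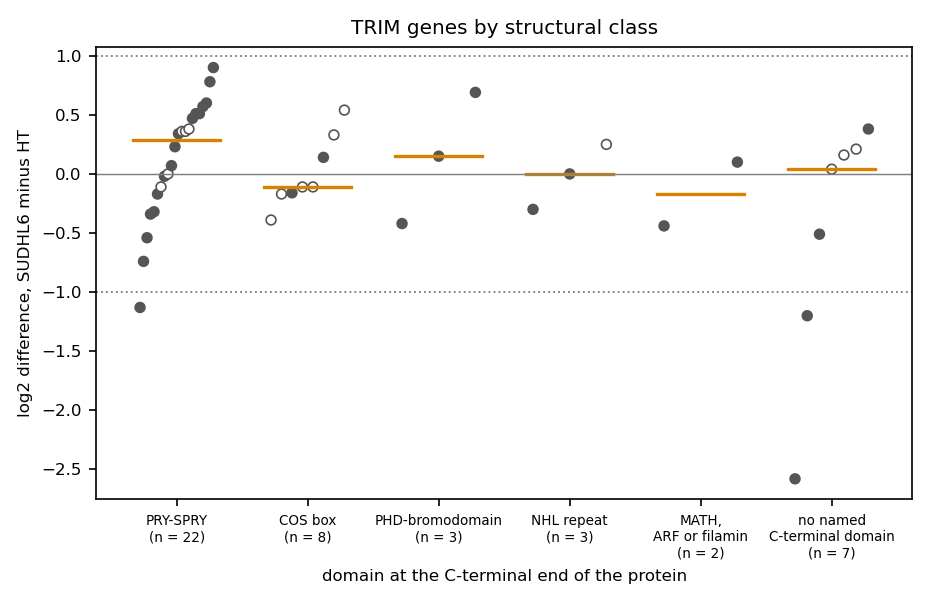
Log2 difference of SUDHL6 minus HT for each of the 45 TRIM genes, by the domain at the C-terminal end of the protein; filled points reached the dim level in the brighter line, open points did not, and orange bars are medians over all points of a class. The PRY-SPRY class has a median of 0.28, and TRIM44 is the lowest point, in the class with no named domain.

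The PRY-SPRY class, which leaves out the members listed under the COS box, was the largest, with 22 measured members. Of these, 17 reached the dim level, 0 were higher in SUDHL6, 1 was higher in HT (TRIM21) and 16 were under 1, with a median of 0.28 over all 22. For comparison, 5.30% of all genes at the dim level were higher in SUDHL6 and 6.99% in HT, so these counts are close to the background. Besides the genes above, TRIM27, a ligase of the nucleus and the endosome, stood at 6.07 in SUDHL6 against 5.50 in HT, and TRIM68, a coactivator of the androgen receptor, at 5.94 in SUDHL6 against 5.43 in HT. TRIM35 stood at 5.0 in SUDHL6 against 5.54 in HT. TRIM4, TRIM11, TRIM15, TRIM41, TRIM47, TRIM62 and TRIM65 reached the dim level with differences from -0.32 to 0.47. TRIM7, TRIM10, TRIM17, TRIM60 and TRIM69 were dim in both.

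Members of the COS box class, which bind microtubules and include proteins of neurons and striated muscle, were mostly dim. Of 8 genes, 2 reached the dim level, against 66.1% of all genes. Of the 8, 0 differed by 1, and 91% of all genes also differed by less. TRIM46, which bundles microtubules at the start of the axon, stood at 5.06 in SUDHL6 against 5.21 in HT, and TRIM67 at 4.26 in SUDHL6 against 4.11 in HT. The muscle ring finger genes TRIM54, TRIM55 and TRIM63, and TRIM9, TRIM36 and TRIM42, were dim in both lines.

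Apart from TRIM44 and TRIM8, members of the smaller classes differed by less than 1, as did 91% of all genes. In the NHL repeat class, TRIM32, a ligase mutated in a limb-girdle muscular dystrophy, stood at 6.41 in SUDHL6 against 6.71 in HT, TRIM3 at 3.98 in both lines, and TRIM2 below the dim level. TRIM37, the only member with a MATH domain and a regulator of centrosome number, stood at 6.86 in SUDHL6 against 7.30 in HT. TRIM45, which has a filamin domain, stood at 3.88 in SUDHL6 against 3.78 in HT, near the dim level. In the class with no named domain, TRIM52 stood at 6.58 in SUDHL6 against 7.09 in HT, and its other probe set at 5.73 and 6.07. The differences of the 2 probe sets, -0.51 and -0.34, had the same sign. TRIM29, TRIM31 and TRIM40 of this class, genes known from epithelia, were dim in both lines.

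Signs of the differences were uniform on 3 of the 6 chromosomes with at least 3 members and mixed on the others, and no test was made. On the short arm of chromosome 6, 7 of 7 measured members had a positive difference, from 0.04 for TRIM40 to 0.90 for TRIM38, with a median of 0.36. Of the 7, 4 reached the dim level (TRIM15, TRIM26, TRIM27 and TRIM38), and 0 were counted as different. Of the 80 other measured genes between the outermost of these members, 55% had a positive difference, and their median was 0.07, or 0.21 over the 50 that reached the dim level. The neighbours of TRIM10, TRIM15, TRIM26, TRIM31 and TRIM40, which lie in the major histocompatibility region, had medians from 0.34 to 0.43, and those of TRIM27 and TRIM38 had 0.05 and 0.06. With the median of its neighbours subtracted, the difference stayed positive for TRIM26, TRIM27 and TRIM38 and was negative for the other 4.

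On chromosome 17, 4 of 4 members (TRIM25, TRIM37, TRIM47 and TRIM65) had a negative difference, from -0.44 to -0.02. Of 835 other genes on that chromosome, 38.4% had a positive one, and their median was -0.07. With neighbours subtracted, 3 of the 4 were negative and TRIM47 was positive, at 0.14. On chromosome 7, 3 of 3 members (TRIM4, TRIM24 and TRIM56) had a positive difference, with a median of 0.47, against a median of 0.07 over 639 other genes, of which 56.5% were positive. Of the 8 members on chromosome 1, 6 had a positive difference, none above 0.36, against 46.5% of other genes there. Chromosome 5 had 2 positive and 2 negative members, and chromosome 11 had 3 positive, 2 negative and TRIM3 at 0. On chromosomes 1, 5, 6, 7 and 17 every member differed by less than 1, as did 91% of all genes, and chromosome copy numbers were not measured.

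**Figure D4:**
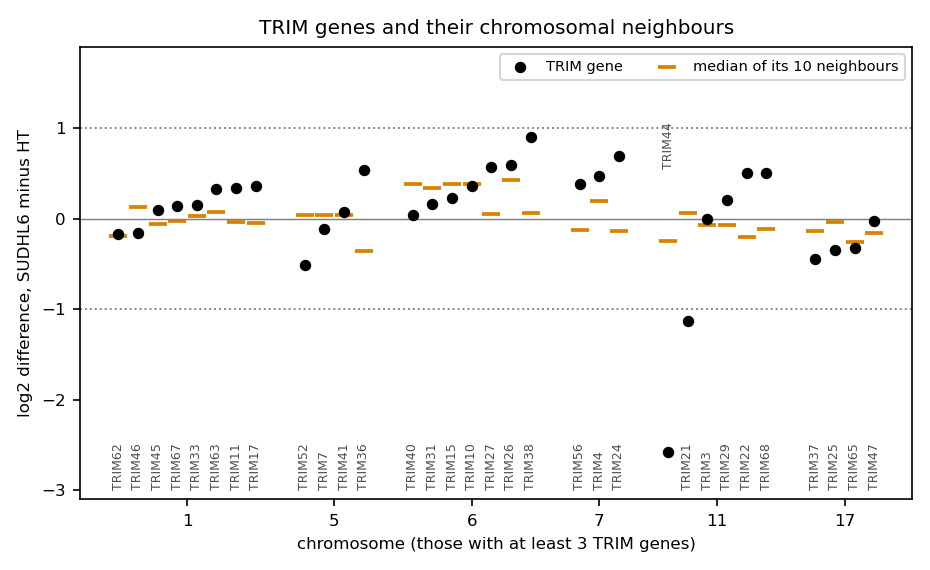
Log2 difference of SUDHL6 minus HT for TRIM genes (black points) on the chromosomes with at least 3 of them, with the median difference of the 10 nearest measured genes (orange dashes). All 7 points on chromosome 6 lie above 0 and all 4 on chromosome 17 below it. On chromosome 11, TRIM44 and TRIM21 lie apart from the medians of their neighbours, of which 4 and 5 reached the dim level.

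Among the genes that TRIM ligases work with, a pair of nucleic acid sensors stood far apart between the lines. Of 13 measured genes of RNA and DNA sensing, 12 reached the dim level. RIGI, the gene of the RNA sensor RIG-I, did not, at 3.04 in SUDHL6 against 3.65 in HT. The median of the 13 was -0.28. Of the 12, 0 were higher in SUDHL6, 2 were higher in HT and 10 were under 1. Among all genes at the dim level, 5.30% were higher in SUDHL6 and 6.99% in HT. IFIH1, the RNA sensor MDA5 that TRIM65 is known to ubiquitinate, stood at 2.24 in SUDHL6 against 5.99 in HT, at least 4.51-fold higher in HT. CGAS, the DNA sensor that TRIM56 and TRIM14 are known to regulate, stood at 2.68 in SUDHL6 against 5.31 in HT, at least 2.82-fold higher in HT. Their adaptors were level, with MAVS at 5.29 in SUDHL6 against 5.15 in HT and STING1 at 4.53 and 4.49. TRIM65 itself stood at 4.66 in SUDHL6 against 4.98 in HT.

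Interferon genes went both ways. Of 17 measured, 12 reached the dim level, and the median of the 17 was -0.03. Of the 12, 2 were higher in SUDHL6, 3 were higher in HT and 7 were under 1. The shares among all genes at the dim level were 5.30% higher in SUDHL6 and 6.99% higher in HT. MX2 stood at 6.2 in SUDHL6 against 3.38 in HT, and OAS2, an RNA-activated synthetase gene, at 5.0 in SUDHL6 against 3.43 in HT. Both HT values were dim, so the ratios were at least 4.23-fold for MX2 and at least 1.85-fold for OAS2. In the other direction, IFIT3 stood at 1.79 in SUDHL6 against 4.64 in HT. Its SUDHL6 value was dim, so the ratio was at least 1.78-fold. For IFIT3 and OAS2 this bound was under the 2-fold ratio of the count. The kinase gene JAK1 was also higher in HT, at 7.75 in SUDHL6 against 8.89 in HT. So was BST2, the tetherin gene, at 4.03 in SUDHL6 against 5.08 in HT.

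E2 enzymes, which RING fingers recruit, were measured for 4 of 14 listed genes, and 3 of these differed. Of the 4, 1 was higher in SUDHL6 and 2 in HT, against 5.30% and 6.99% of all genes at the dim level. With 4 genes measured, these counts do not describe the list as a whole. UBE2E1 stood at 6.34 in SUDHL6 against 8.76 in HT, a 5.34-fold ratio. UBE2L6, the E2 of the ubiquitin-like modifier ISG15, stood at 5.44 in SUDHL6 against 7.49 in HT, a 4.15-fold ratio. UBE2E2, a close relative of UBE2E1, went the other way, at 5.49 in SUDHL6 against 4.26 in HT. UBE2V2 stood at 9.98 in SUDHL6 against 9.73 in HT.

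Relatives of the family that carry other symbols differed by less than 1, as did 91% of all genes. All 6 listed were measured and 2 reached the dim level. PML, the scaffold of PML nuclear bodies, stood at 4.26 in SUDHL6 against 4.05 in HT. MEFV, the pyrin gene, stood at 4.26 in SUDHL6 against 3.94 in HT. Both reached the dim level in SUDHL6 alone, and their HT values were below that of HT. Of 5 measured PML body genes, 4 were under 1, and the median of the 5 was 0.21. The other 1 was higher in SUDHL6, as were 5.30% of all genes at the dim level. That gene was SP110, at 8.18 in SUDHL6 against 5.98 in HT, a 4.57-fold ratio, while its relative SP100 stood at 6.21 and 6.43.

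**Figure D5:**
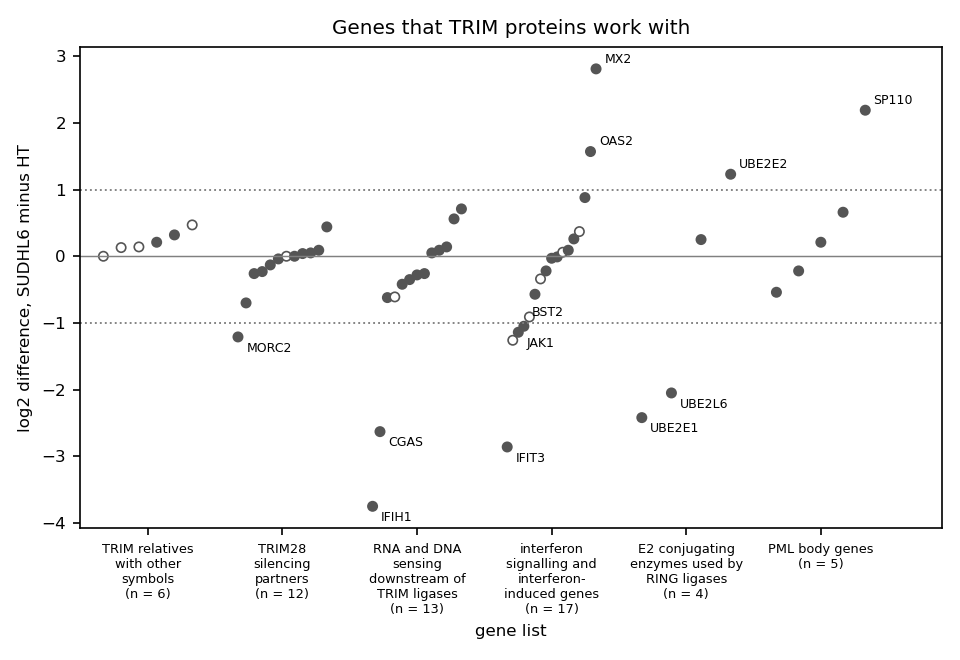
Log2 difference of SUDHL6 minus HT for genes that work with TRIM proteins, by list, with filled points for genes that passed the dim level in the brighter line and open points for the rest. Names mark the genes that differ by at least 1, from IFIH1 at -3.75 to MX2 at 2.81.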

How the data were processed

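The authors deposited 1 table of log2 expression values, with 1 value per probe set and array for 22011 probe sets. RMA and the Affymetrix Expression Console made them, per the submitters' processing notes; their versions and settings, and the build, are not stated in the labels. Genes were named from GEO's platform annotation, and 14404 of the 14432 probe sets naming 1 gene were matched to a RefSeq table of GRCh38.p14. Each gene took its probe set with the highest mean, probe sets with several genes were not used, and 14232 genes remained. SUDHL6 and HT were grouped by the cell line label. Differences were computed in Python 3.11.15 (pandas 2.3.3, NumPy 2.4.6, statsmodels 0.14.6), and the counting was tested on simulated data. With 1 array a line no p-value was computed, and the number of arrays limits the precision. The members, lists and thresholds were chosen with earlier results of these data known, and the promoter motif after the values were seen. Named genes were all members, and of each other list up to 4 with a difference of at least 1, or 2 if none; CD5, BST2 and the other genes named beside them were added after their values were seen. Alternatives were another normalization, dim level, choice of probe sets and member rule.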

Additional observations from a re-analysis of the deposited data

How the results depend on the processing

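The count of members higher in SUDHL6, 0 as reported, was 1 after quantile normalization and 1 after loess, with TRIM38 in both cases, and 0 under the other 8 alternatives. The count higher in HT, 3 as reported, was 1 with the dim level at the 99th percentile, 1 with low values raised to the dim level and 1 with a difference of at least 2, each time TRIM44; it was 3 under the other 7. TRIM44 kept its direction and count under all 10 alternatives, from -2.58 to -2.33, and was -2.11 with only its neighbours at the dim level subtracted, an alternative chosen after seeing the data. The median over members ran from 0.03 to 0.14, except with low values raised, where it was -0.30, as was the median of all genes, the value that raising alone gives to a gene that is dim throughout. Of 450 values of single members under the alternatives, 0 reversed a counted difference, 6 (TRIM8 and TRIM21) lost the count, 2 (TRIM38) gained it and 10 others moved by more than 0.39. No paired analysis was possible because each line has 1 array. Leaving out an array was not possible either. The deposited table gives no signal over background, so what a dim probe set can show is limited by the olfactory receptor genes alone.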

Other observations

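The annotation gave 13 further probe sets that name several genes, with a TRIM symbol among them, 9 of which reached the dim level and 0 of which were counted as different. A probe set shared by IFT80 and TRIM59 stood at 6.19 in SUDHL6 against 5.34 in HT. One shared by FARSB and TRIM61 stood at 8.87 in SUDHL6 against 9.47 in HT, and one shared by CNOT10 and TRIM71 at 5.81 in SUDHL6 against 5.94 in HT. Of the probe sets shared by TRIM39 and its readthrough transcript, 1 also names RPP21 and stood at 6.86 in SUDHL6 against 6.47 in HT, while the other stood at 4.52 in SUDHL6 against 4.27 in HT. Both were the higher in SUDHL6, as were the 7 members of chromosome 6. The probe set shared by TRIM6 and TRIM34 and the probe sets of the TRIM48 and TRIM49 groups of near-identical genes were dim in both lines. Which of the genes on a shared probe set gave the signal cannot be told from the table.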
